A study of Mus musculus with 16 samples.

Results

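The circadian clock genes described here were 10 genes of the 55573 in the count table: Arntl, Npas2 and Clock, which form the positive arm of the clock, Per1, Per2, Per3 and Ciart, which act against it, and Dbp, Tef and Hlf, 3 transcription factors through which the clock drives its output. They were selected because, within the groups of the study, clock genes had been seen to follow the number that ends each mouse's label (Per2 did not), with the positive arm and the other genes moving in opposite directions. That relation is therefore given as a description, without a test. RNA from the apex of the heart of 16 male mice was sequenced. Every mouse was wild type and had received, as a newborn pup, AAV9 with the cTNT promoter, which is active in cardiomyocytes. The virus carried GFP or Cardinal, a long noncoding RNA (Gm12295), and each virus was followed by sham surgery or by TAC (transverse aortic constriction, which makes the left ventricle pump against a raised pressure), with 4 mice in each of the 4 groups and hearts taken 4 weeks after surgery. The age of the mice at surgery and the hour of day at which hearts were taken are not given in the sources used here. The mouse numbers were 1, 2, 3 and 4 in both sham groups, 1, 3, 4 and 7 in AAV9-GFP TAC, and 1, 4, 5 and 6 in AAV9-Cardinal TAC. The labels do not say what a number stands for, and numbers averaged 2.5 in each sham group, 3.75 in AAV9-GFP TAC and 4.0 in AAV9-Cardinal TAC.

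The circadian clock is a feedback loop that runs in nearly every cell. BMAL1, encoded by Arntl, pairs with CLOCK or its close relative NPAS2 and binds E-box elements, where it switches on the Per and Cry genes, Ciart, the nuclear receptors Nr1d1 and Nr1d2 (REV-ERBα and REV-ERBβ) and Dbp. PER and CRY proteins, and CIART (also called CHRONO), then inhibit that pair, whereas REV-ERB proteins repress Arntl and compete with ROR activators for the same element. DBP, TEF and HLF are related factors that bind D-box elements and pass the rhythm on to genes of metabolism, and NFIL3 represses through the same element. In the heart, as in other organs, Arntl and Npas2 are known to peak at nearly the opposite time of day from Dbp and the Per genes.

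Where these elements lie near the start of a gene is shown by promoters of 4 members. Promoters were taken from RefSeq on GRCm38.p6 as 300 bases, from 250 bases before a transcript's start to 50 bases after it. RefSeq promoters were found for 9 of the 10 genes (all but Per2), with 14 promoters in all. The motifs searched on both strands were the E-box CACGTG, the D-box in the forms TTATGTAA and TTACGTAA, the end of the ROR and REV-ERB element in the forms TAGGTCA and TGGGTCA, and the cAMP response element TGACGTCA. Capitals mark a match, and the sequences are given 5′ to 3′ on the strand of the gene. The Ciart window (chr3:95882179-95882478, minus strand) held 3 E-boxes. The first of the Per1 windows (chr11:69098699-69098998, plus strand) held 1 E-box, and the second, which is not shown, held no match. The Per3 window (chr4:151044616-151044915, minus strand) held 2 D-boxes. The second of the Arntl windows (chr7:113207261-113207560, plus strand) held 1 end of a ROR and REV-ERB element, 31 bases into the transcript.
Ciart: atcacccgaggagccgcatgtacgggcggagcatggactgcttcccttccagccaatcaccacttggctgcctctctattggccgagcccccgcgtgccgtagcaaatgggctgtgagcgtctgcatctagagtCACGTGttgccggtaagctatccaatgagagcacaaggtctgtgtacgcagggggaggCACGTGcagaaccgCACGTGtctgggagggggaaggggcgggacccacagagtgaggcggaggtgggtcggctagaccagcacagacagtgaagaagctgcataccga
Per1: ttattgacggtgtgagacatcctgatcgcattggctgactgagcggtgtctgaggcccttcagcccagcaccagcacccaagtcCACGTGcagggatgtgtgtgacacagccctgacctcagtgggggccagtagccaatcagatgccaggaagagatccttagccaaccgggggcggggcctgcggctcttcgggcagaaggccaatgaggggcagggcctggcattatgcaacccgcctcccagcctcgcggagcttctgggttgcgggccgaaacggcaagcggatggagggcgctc
Per3: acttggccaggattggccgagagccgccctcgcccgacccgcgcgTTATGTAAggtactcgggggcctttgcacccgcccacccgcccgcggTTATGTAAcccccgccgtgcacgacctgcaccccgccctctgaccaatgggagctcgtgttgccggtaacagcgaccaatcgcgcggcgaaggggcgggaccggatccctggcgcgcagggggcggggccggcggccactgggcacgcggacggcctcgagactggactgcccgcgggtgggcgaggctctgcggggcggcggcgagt
Arntl: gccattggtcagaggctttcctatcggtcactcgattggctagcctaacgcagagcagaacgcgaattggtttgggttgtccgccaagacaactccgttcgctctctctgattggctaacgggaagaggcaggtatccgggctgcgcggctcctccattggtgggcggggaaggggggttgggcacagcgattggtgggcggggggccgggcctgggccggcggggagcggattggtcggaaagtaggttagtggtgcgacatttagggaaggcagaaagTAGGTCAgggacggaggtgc
Among all 32851 promoters of that length, 7.15% held the E-box, 1.06% a D-box, 6.45% the end of a ROR and REV-ERB element and 1.79% the cAMP response element. Of the 9 genes with a promoter, Per1, Ciart and Tef held an E-box, Per3 a D-box, Arntl the ROR and REV-ERB element end, and Hlf the cAMP response element. Counted by promoter, as that background is, 4 of the 14 held an E-box and 1 held each of the other motifs. No motif of the search lay in the windows of Npas2, Clock or Dbp. These matches describe the letters of the windows and do not show that a factor was bound.

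Totals ranged from 16441997 to 21904589 counts per mouse, and 3 counts, taken as the limit of detection, corresponded to between 0.137 and 0.182 CPM (counts scaled to library size by TMM), for counting error only. The apex was rich in cardiomyocyte RNA: all 6 cardiomyocyte markers were present, with a summed level between 24354 and 35907 CPM, whereas the atrial markers Sln and Myl7, and all 4 markers each of lymphocytes, adipocytes and skeletal muscle, stayed under 1 CPM in every mouse. The third atrial marker, Myl4, reached 1 CPM in at least 1 mouse, and the 3 atrial markers summed to at most 2.40 CPM (in AAV9-GFP TAC). Gm12295 was between 3.42 and 7.24 CPM in AAV9-GFP mice and between 18.3 and 93.8 CPM in AAV9-Cardinal mice, with the highest level in AAV9-Cardinal TAC mouse 1. In bulk heart RNA, fewer cells of a type and less RNA per cell cannot be told apart.

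All 10 genes passed the filter on low counts. Per exon length, in AAV9-GFP sham hearts, the levels fell in the order Dbp (29.2 ± 5.08 RPKM, mean ± SD, n = 4), Tef (20.8 ± 2.38), Per1 (13.8 ± 1.06), Per2 (9.62 ± 1.30), Ciart (7.45 ± 2.06), Hlf (6.24 ± 0.508), Per3 (4.60 ± 0.701), Clock (1.89 ± 0.0456), Npas2 (0.383 ± 0.0591) and Arntl (0.121 ± 0.0306). Neighbours whose mice overlapped in that order were Per2 and Ciart, and Ciart and Hlf. The other neighbours were apart in every mouse of the group. Arntl was the least abundant member and rested on 12 to 101 counts per mouse, and Npas2 on 26 to 63 counts, whereas each of the other 8 members had at least 128 counts in every mouse.

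**Figure D1:**
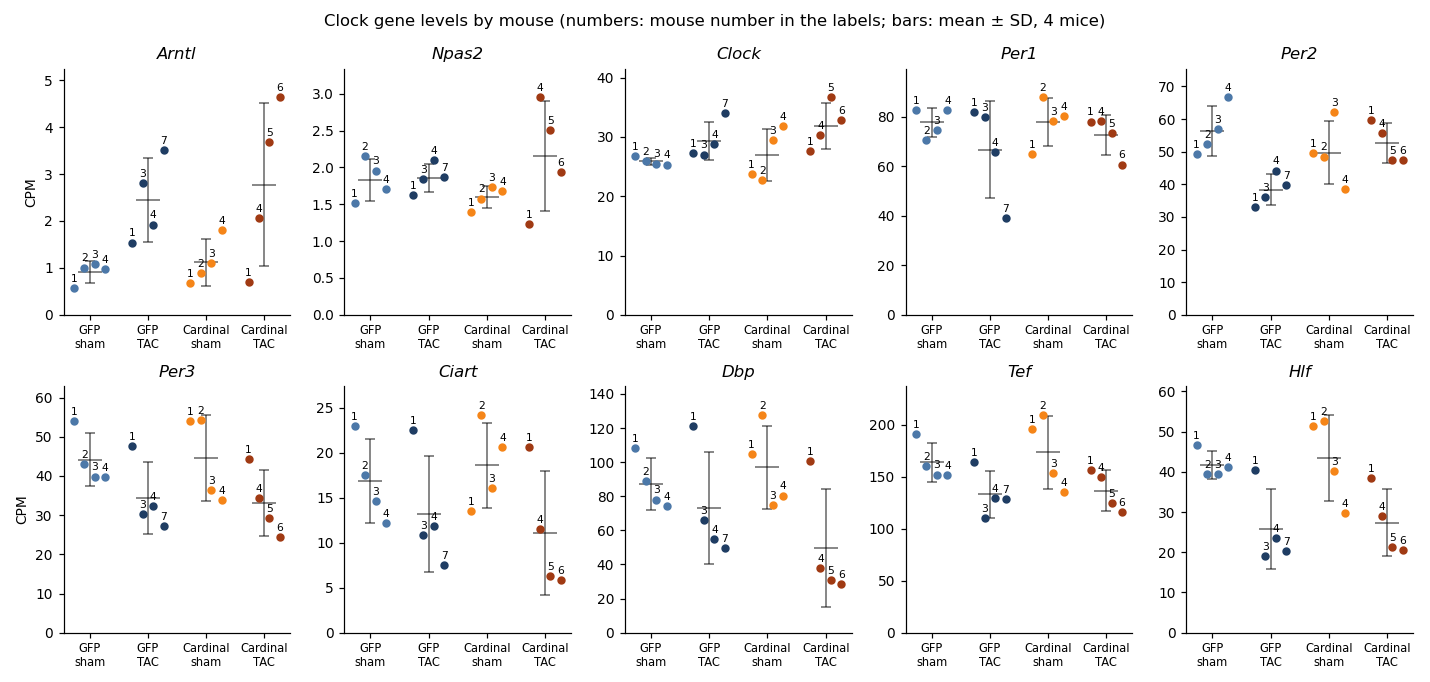
Level of each clock gene in CPM (vertical axes, from 0) in every mouse, by group; the small numbers are the mouse numbers of the labels and the black bars give mean ± SD of 4 mice. In AAV9-Cardinal TAC hearts, Dbp was 100.9 CPM in mouse 1 and between 28.7 and 37.7 CPM in mice 4, 5 and 6, and Arntl was 0.707 CPM in mouse 1 and 2.07, 3.68 and 4.65 CPM in the others.

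In the positive arm, Arntl encodes the partner without which the loop does not run. Its level in AAV9-GFP sham mice 1 to 4 was 0.567, 1.01, 1.08 and 0.977 CPM, and in AAV9-GFP TAC mice 1, 3, 4 and 7 it was 1.54, 2.81, 1.92 and 3.52 CPM. All 4 TAC mice lay above all 4 sham mice. In AAV9-Cardinal sham mice 1 to 4, Arntl was 0.677, 0.882, 1.10 and 1.82 CPM, and in AAV9-Cardinal TAC mice 1, 4, 5 and 6 it was 0.707, 2.07, 3.68 and 4.65 CPM. Here mouse 1 of the TAC group lay among the sham mice and the other 3 lay above them. The group means were 0.907 ± 0.231 (SD, n = 4), 2.45 ± 0.890, 1.12 ± 0.495 and 2.77 ± 1.74 CPM with sham before TAC and AAV9-GFP before AAV9-Cardinal.

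Npas2, the relative of Clock that can take its place, was between 1.51 and 2.16 CPM in AAV9-GFP sham, 1.63 and 2.098 in AAV9-GFP TAC, 1.40 and 1.73 in AAV9-Cardinal sham, and 1.24 and 2.96 CPM in AAV9-Cardinal TAC hearts. Its groups overlapped in every comparison. Clock was 26.7, 26.0, 25.5 and 25.3 CPM in AAV9-GFP sham mice 1 to 4 and 27.3, 27.0, 28.8 and 34.1 CPM in AAV9-GFP TAC mice 1, 3, 4 and 7. These groups did not overlap either, although the lowest TAC mouse was only slightly above the highest sham mouse. With the Cardinal virus, Clock ranged from 22.7 to 31.8 CPM after sham surgery and from 27.6 to 36.8 CPM after TAC.

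Of the genes that act against the positive arm, Per1, a repressor that also responds quickly to hormones and other signals, was between 70.8 and 82.9 CPM in AAV9-GFP sham hearts, and 81.8, 79.8, 65.9 and 39.3 CPM in AAV9-GFP TAC mice 1, 3, 4 and 7. Mouse 7 of the TAC group was the lowest of all 16 mice. Per1 lay between 65.0 and 88.1 CPM in AAV9-Cardinal sham and between 60.8 and 78.5 CPM in AAV9-Cardinal TAC hearts.

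Per2, a repressor of the same family, was 49.4, 52.3, 56.9 and 66.8 CPM in AAV9-GFP sham mice 1 to 4 and 33.1, 36.2, 44.2 and 39.8 CPM in AAV9-GFP TAC mice 1, 3, 4 and 7. It was 49.6, 48.5, 62.1 and 38.4 CPM in AAV9-Cardinal sham mice 1 to 4, and 59.8, 55.8, 47.5 and 47.5 CPM in AAV9-Cardinal TAC mice 1, 4, 5 and 6. All AAV9-GFP TAC mice were below all AAV9-GFP sham mice and below all AAV9-Cardinal TAC mice, whereas the AAV9-Cardinal groups overlapped. Per2 was the member that went least with the mouse number.

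Per3, the third period gene, was 54.0, 42.9, 39.9 and 39.8 CPM in AAV9-GFP sham mice 1 to 4 and 47.7, 30.3, 32.3 and 27.2 CPM in AAV9-GFP TAC mice 1, 3, 4 and 7. It was 53.9, 54.2, 36.4 and 33.8 CPM in AAV9-Cardinal sham mice 1 to 4, and 44.3, 34.5, 29.3 and 24.5 CPM in AAV9-Cardinal TAC mice 1, 4, 5 and 6. In 3 of the 4 groups mouse 1 was the highest, and in AAV9-Cardinal sham it was level with mouse 2.

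Ciart was 23.0, 17.5, 14.6 and 12.2 CPM in AAV9-GFP sham mice 1 to 4, and 22.5, 10.9, 11.9 and 7.56 CPM in AAV9-GFP TAC mice 1, 3, 4 and 7. It was 13.5, 24.2, 16.1 and 20.6 CPM in AAV9-Cardinal sham mice 1 to 4, and 20.6, 11.5, 6.33 and 5.89 CPM in AAV9-Cardinal TAC mice 1, 4, 5 and 6. Mouse 1 was the highest in both TAC groups and in AAV9-GFP sham, and the lowest in AAV9-Cardinal sham. Of the 50-base stretches of Ciart, 11.9% also lie in Gm9176 on the same strand, which had between 0.460 and 2.14 CPM, so reads from these stretches could have been counted for either gene.

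Dbp, an output factor known for one of the widest daily swings in heart and liver, was 108, 88.7, 78.1 and 74.5 CPM in AAV9-GFP sham mice 1 to 4, and 121, 66.2, 54.8 and 49.7 CPM in AAV9-GFP TAC mice 1, 3, 4 and 7. It was 105, 128, 75.0 and 80.4 CPM in AAV9-Cardinal sham mice 1 to 4, and 100.9, 37.7, 31.0 and 28.7 CPM in AAV9-Cardinal TAC mice 1, 4, 5 and 6. Mouse 1 of AAV9-GFP TAC was above all sham mice of its virus, mouse 1 of AAV9-Cardinal TAC lay among them, and the other 3 mice of each TAC group were below the lowest of them. Of the 50-base stretches of Dbp, 16.2% lie on the other strand of Sphk2, which was between 9.53 and 16.4 CPM, and the use of strand in the counting is not given in the sources used here.

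Hlf was 46.6, 39.4, 39.6 and 41.1 CPM in AAV9-GFP sham mice 1 to 4, and 40.5, 19.2, 23.4 and 20.2 CPM in AAV9-GFP TAC mice 1, 3, 4 and 7. It was 51.4, 52.6, 40.2 and 29.7 CPM in AAV9-Cardinal sham mice 1 to 4, and 38.4, 29.1, 21.4 and 20.5 CPM in AAV9-Cardinal TAC mice 1, 4, 5 and 6. Mouse 1 of each TAC group lay within the sham range of its virus. Tef, the member with the highest CPM, was between 152 and 191 CPM in AAV9-GFP sham, 111 and 164 in AAV9-GFP TAC, 136 and 210 in AAV9-Cardinal sham, and 116 and 157 CPM in AAV9-Cardinal TAC hearts.

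The spread between mice of a group differed from member to member. The highest AAV9-Cardinal TAC mouse exceeded the lowest 6.57-fold for Arntl and 3.51-fold for both Dbp and Ciart, compared with 1.26-fold for Per2, 1.29-fold for Per1 and 1.33-fold for Clock. In AAV9-GFP sham hearts, whose mouse numbers ran only from 1 to 4, the same ratio was 1.90 for Arntl, 1.45 for Dbp and 1.06 for Clock.

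Whether the clock genes changed with TAC was tested with edgeR's quasi-likelihood test over 16857 genes, with p-values adjusted by Benjamini-Hochberg and called under 0.05. After TAC in AAV9-GFP hearts, Arntl rose and Per2 fell. The log2 fold change was 1.43 ± 0.47 (SE, adjusted p = 0.0485) for Arntl and -0.55 ± 0.14 (adjusted p = 0.0107) for Per2. The mean mouse number was 3.75 in AAV9-GFP TAC and 2.5 in AAV9-GFP sham, and Arntl rose with the number within groups. In the changes of Arntl and of other members that followed the number, TAC and the mouse number cannot be told apart. With 1 of 10 members higher and 1 lower, against 8.49% of all tested genes higher and 8.92% lower, the share of called clock genes was close to the background. The median log2 fold change of the members was -0.28, against 0.01 over all tested genes. Hlf had a log2 fold change of -0.69 ± 0.25 (adjusted p = 0.0664), and the other 7 members were not past the threshold, with adjusted p between 0.188 for Tef and 0.966 for Npas2. Between the groups, 3 of 10 members did not overlap (Arntl, Clock and Per2), against 20.3% of all tested genes, and each had an exact permutation p of 0.029 on log2 CPM, the smallest that 4 mice against 4 allow. In the same comparison the summed cardiomyocyte markers were lower (between 24354 and 29752 CPM after TAC, 33845 and 34915 CPM after sham surgery) and the summed fibroblast markers higher (between 599 and 805 CPM, 391 and 449 CPM), and their part in the result was not tested. The call of Arntl was lost when any of 12 of the 16 mice was left out (adjusted p up to 0.136), whereas that of Per2 held with each mouse left out (adjusted p up to 0.0384).

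After TAC in AAV9-Cardinal hearts, 0 of 10 members passed the threshold in edgeR, against 3.10% of all tested genes higher and 3.38% lower, and 5 of 10 had an unadjusted p under 0.05, against 21.8% of all tested genes. DESeq2 also called 0. The log2 fold changes were 1.34 ± 0.46 for Arntl (adjusted p = 0.1003), -0.97 ± 0.37 for Dbp (adjusted p = 0.135), -0.74 ± 0.38 for Ciart (adjusted p = 0.280) and -0.67 ± 0.25 for Hlf (adjusted p = 0.120), with a median of -0.22 over the members against -0.000469 over all tested genes. No member was without overlap between the groups, against 13.7% of all tested genes. AAV9-Cardinal TAC mouse 1 decided this count. Without it, 5 members passed the threshold, and the log2 fold changes were 1.67 for Arntl (adjusted p = 0.0133), 0.63 for Npas2 (adjusted p = 0.0285), -1.58 for Dbp (adjusted p = 0.00677), -1.23 for Ciart (adjusted p = 0.0469) and -0.88 for Hlf (adjusted p = 0.0421), in a fit that called 1436 genes compared with 1092 with all mice. Without the 4 mice numbered 1, the members past the threshold were 4, namely Arntl (log2 fold change 1.49), Dbp (-1.54), Ciart (-1.36) and Hlf (-0.79), in a fit that called 1216 genes. Leaving out mouse 1 of AAV9-Cardinal TAC put the mean number of that group further above that of its sham group. In the calls of both fits, as in the fold changes with all mice, TAC and the mouse number cannot be told apart.

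**Figure D2:**
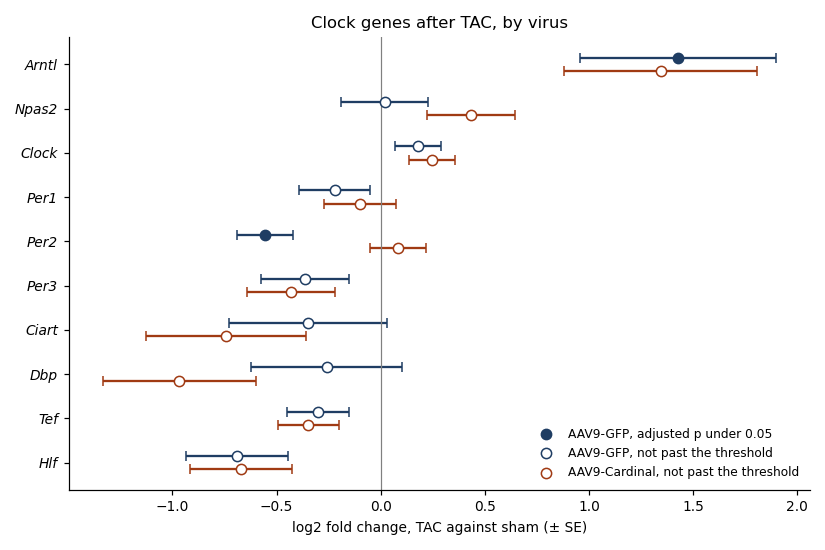
Log2 fold change of TAC against sham for each clock gene with its standard error (horizontal axis), in AAV9-GFP and in AAV9-Cardinal hearts, from the fit of all 16 mice; filled points passed an adjusted p of 0.05. Arntl (1.43) and Per2 (-0.55) in AAV9-GFP hearts are the filled points, and Per2 is at 0.08 in AAV9-Cardinal hearts.

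Whether Cardinal changed the clock genes was tested within each kind of surgery. In sham hearts, the log2 fold changes of the members lay between -0.20 for Npas2 and 0.26 for Arntl. Of these, 0 of 10 members passed the threshold in edgeR between AAV9-Cardinal and AAV9-GFP, against 0.0119% of all tested genes, with 0 at an unadjusted p under 0.05 and 0 in DESeq2. In TAC hearts, they lay between -0.56 for Dbp and 0.46 for Per2, and 0 of 10 passed in edgeR, against 0.101% of all tested genes, and 1 had an unadjusted p under 0.05, against 15.0% of all tested genes. This was Per2, higher with Cardinal by a log2 fold change of 0.46 ± 0.14 (adjusted p = 0.131), a difference that did not hold after adjustment. DESeq2 called Per2 in this comparison, where it called 435 genes in all and edgeR 17. Of the 10 members, 1 (Per2) did not overlap between the TAC groups, against 6.77% of all tested genes, with an exact permutation p of 0.029. The difference in the TAC response between the viruses was past the threshold for 0 of 10 members in edgeR, against 0.0119% of all tested genes. It was 0.64 ± 0.19 for Per2 (adjusted p = 0.309), the single member with an unadjusted p under 0.05, against 10.2% of all tested genes, and DESeq2 called Per2 here too, among 145 genes in all where edgeR called 2. Without AAV9-Cardinal TAC mouse 1, Dbp was called lower with Cardinal in TAC hearts, the single such call among the members. Leaving that mouse out raised the mean number of its group, so Cardinal and the mouse number cannot be told apart in this call. How many of all tested genes that fit called is not given here, so the call has no background beside it.

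The relation that chose the members is summed up by a clock score, the mean log2 CPM of Arntl, Npas2 and Clock minus the mean log2 CPM of the other 7. The score was -4.42, -3.78, -3.75 and -3.87 in AAV9-GFP sham mice 1 to 4, and -3.78, -2.87, -3.02 and -2.40 in AAV9-GFP TAC mice 1, 3, 4 and 7. It was -4.29, -4.38, -3.75 and -3.37 in AAV9-Cardinal sham mice 1 to 4, and -4.27, -2.89, -2.26 and -2.20 in AAV9-Cardinal TAC mice 1, 4, 5 and 6. The lowest score of a group belonged to mouse 1 in 3 groups and to mouse 2 in AAV9-Cardinal sham. Over the 16 mice, with scores and numbers centred on their group means, the Pearson correlation was 0.89 and Spearman's rho 0.86, and the Pearson correlation was 0.84 without the 2 mice whose numbers lay farthest from the median. It was 0.81 in the 8 sham mice, 0.91 in the 8 TAC mice and 0.72 without the 4 mice numbered 1. These points share the normalization and the count table, and they carry no p because the members were chosen by this relation.

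**Figure D3:**
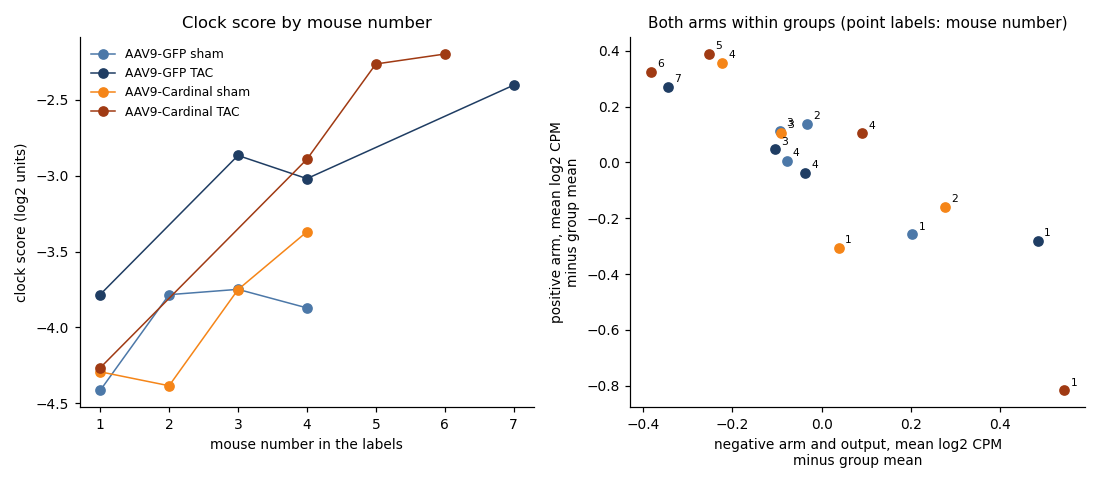
Left, clock score in log2 units against the mouse number of the labels, with the mice of each group joined by a line. Right, mean log2 CPM of Arntl, Npas2 and Clock against that of the other 7 members, each minus its group mean, with 1 point for each of 16 mice. The mice numbered 1 lie low on the left and toward the lower right of the right-hand plot, and AAV9-Cardinal TAC mouse 1 (score -4.27) lies farthest out.

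By gene, the correlation with the mouse number within groups was 0.85 for Arntl, 0.71 for Clock and 0.50 for Npas2. It was -0.89 for Per3, -0.88 for Dbp, -0.80 for Hlf, -0.79 for Ciart, -0.69 for Tef, -0.61 for Per1 and 0.05 for Per2. The slope fitted on the counts, with number as a linear term beside the groups, was 0.32 ± 0.06 log2 units per number (SE) for Arntl, -0.26 ± 0.04 for Dbp, -0.26 ± 0.05 for Ciart, -0.16 ± 0.03 for Hlf and -0.15 ± 0.02 for Per3. These slopes too are a description. With number in the model, the log2 fold change of TAC in AAV9-GFP hearts was 1.00 for Arntl (adjusted p = 0.0272), -0.56 for Per2 (adjusted p = 0.0135), -0.53 for Hlf (adjusted p = 0.0247) and 0.00359 for Dbp (adjusted p = 0.995). In AAV9-Cardinal hearts it was 0.72 for Arntl (adjusted p = 0.200) and -0.74 for Dbp (adjusted p = 0.0318). Because the members were chosen for following the number, these adjusted p draw on that choice. They too are given as a description, not as a test.

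Mice with the same number can be set side by side without assuming that they are pairs. For AAV9-GFP, the difference of TAC minus sham in log2 CPM of Arntl was 1.31 between the mice numbered 1, 1.31 between those numbered 3 and 0.91 between those numbered 4. For AAV9-Cardinal it was 0.06 between the mice numbered 1 and 0.18 between those numbered 4. For Dbp the differences were 0.16, -0.24 and -0.44 in AAV9-GFP mice 1, 3 and 4, and -0.05 and -1.09 in AAV9-Cardinal mice 1 and 4. Arntl was thus higher after TAC at each shared number with AAV9-GFP, and Dbp was lower at 2 of the 3. With AAV9-Cardinal, Arntl differed by only 0.06 and 0.18 at the shared numbers, against a fitted log2 fold change of 1.34. Dbp was lower at both of these numbers.

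The arms moved against each other within groups. The correlation of the mean positive arm with the mean of the other 7 members was -0.89 (Spearman's rho -0.85) over 16 mice, -0.92 without the 2 mice farthest from the median, -0.81 in sham mice and -0.91 in TAC mice. All 21 pairs of a positive-arm gene with another member were negatively correlated, from -0.88 for Arntl and Per3 to -0.04 for Npas2 and Per2. The 3 pairs within the positive arm were between 0.39 and 0.69. Among the other 7 members the 10 pairs of Per3, Ciart, Dbp, Tef and Hlf were between 0.62 and 0.94, with Per3 and Hlf the closest. Per2 stood apart, with correlations between -0.10 and 0.19 with the other 6, and Per1 was between 0.20 and 0.62 with these 5.

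**Figure D4:**
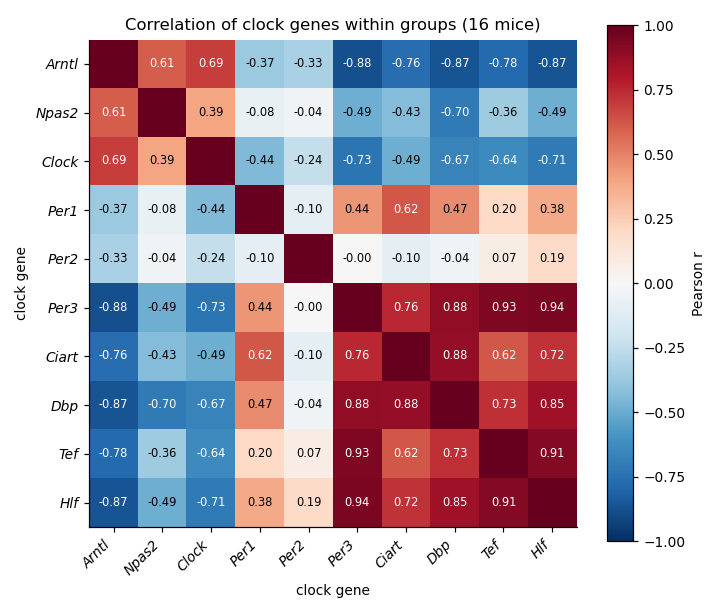
Pearson correlation of each pair of clock genes over 16 mice after centring on group means, from -1 (blue) to 1 (red), with the value in each cell. Arntl is negatively correlated with Per3 (-0.88), Dbp and Hlf (both -0.87), and the row of Per2 is close to 0 with the other repressors and the output factors.

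The wider clock pathway was described with 35 further genes, of which 34 passed the filter on low counts and Fbxl21 did not. After TAC in AAV9-GFP hearts, 1 rose and 8 fell, and the median log2 fold change was -0.07. Nr1d2, the REV-ERB repressor of Arntl, fell by 0.44 ± 0.08 on the log2 scale (adjusted p = 0.00203). It was 124, 114, 121 and 115 CPM in sham mice 1 to 4 and 93.8, 77.0, 90.7 and 88.7 CPM in TAC mice 1, 3, 4 and 7. The other genes that fell were Kcnip2, a subunit of a heart potassium channel (log2 fold change -0.78, adjusted p = 5.48e-05), Nampt, an enzyme of NAD synthesis (-0.74, adjusted p = 0.00266), Klf15 (-0.71, adjusted p = 0.00427) and Klf9 (-0.34, adjusted p = 0.00877), both transcription factors, Dgat2, an enzyme of triglyceride synthesis (-0.42, adjusted p = 0.0215), Usp2, a deubiquitinase (-0.28, adjusted p = 0.0224), and Wee1, a cell cycle kinase (-0.52, adjusted p = 0.0419). Timeless, which also serves in DNA replication, rose by 0.44 (adjusted p = 0.00797). Of these calls, that of Wee1 was lost when any of 8 of the 16 mice was left out (adjusted p up to 0.131), that of Usp2 with any of 5 (up to 0.0824) and that of Dgat2 with 1 (0.0525). After TAC in AAV9-Cardinal hearts, 1 rose and 3 fell, with a median of -0.12. The genes that fell were Kcnip2 (log2 fold change -0.49, adjusted p = 0.00653), Nr1d2 (-0.30, adjusted p = 0.0440) and Cirbp, a cold-inducible RNA-binding protein (-0.91, adjusted p = 0.0266). Alas1, the first enzyme of heme synthesis, rose (log2 fold change 0.45, adjusted p = 0.0213). The call of Nr1d2 was lost when any of 12 of the 16 mice was left out (adjusted p up to 0.121), that of Cirbp with any of 6 (up to 0.0898) and that of Alas1 with any of 3 (up to 0.0646), whereas that of Kcnip2 held with each mouse left out. The share of this list that was called lower after TAC in AAV9-GFP hearts, 8 of 34, stands beside the 8.92% of all tested genes, and 3 of 34 after TAC in AAV9-Cardinal hearts beside 3.38%. For calls of higher, 1 of 34 stands beside 8.49% in AAV9-GFP hearts, and 1 of 34 beside 3.10% in AAV9-Cardinal hearts. Between viruses, 0 of 34 passed in edgeR in sham hearts (1 at an unadjusted p under 0.05, against 2.59% of all tested genes, and 0 in DESeq2), 0 in TAC hearts (6 at an unadjusted p under 0.05, against 15.0%, and in DESeq2 2, Klf9 and Kcnip2) and 0 for the difference in the TAC response (5 at an unadjusted p under 0.05, against 10.2%, and 0 in DESeq2).

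Other loop genes did not all go with the score. Nr1d1 was 67.1 CPM in AAV9-Cardinal TAC mouse 1 and 33.0, 27.9 and 25.6 CPM in mice 4, 5 and 6, against 49.4 to 81.0 CPM in AAV9-Cardinal sham mice, with a log2 fold change of -0.70 ± 0.28 (adjusted p = 0.151). In AAV9-GFP hearts, Nr1d1 was between 50.2 and 60.8 CPM after sham surgery and between 38.4 and 84.9 CPM after TAC, and its log2 fold change was 0.08 ± 0.28 (adjusted p = 0.888). Its correlation with the clock score was -0.63, and that of Nr1d2 -0.65. Nfil3, which opposes Dbp, Tef and Hlf at the D-box, was between 3.98 and 15.9 CPM with a correlation of 0.69, and Bhlhe41 (DEC2), a repressor at E-boxes, was between 17.6 and 43.1 CPM with a correlation of -0.79. The cryptochromes Cry1 (0.23) and Cry2 (-0.00496) were closer to 0. Pdk4, a kinase that limits the use of glucose, had a correlation of 0.94 with the score, Tspan4 of -0.74 and Btrc of -0.72, against 3.02% of all tested genes at 0.7 or above and 3.93% at -0.7 or below. Pdk4, Tspan4 and Btrc were named after their values had been seen.

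**Figure D5:**
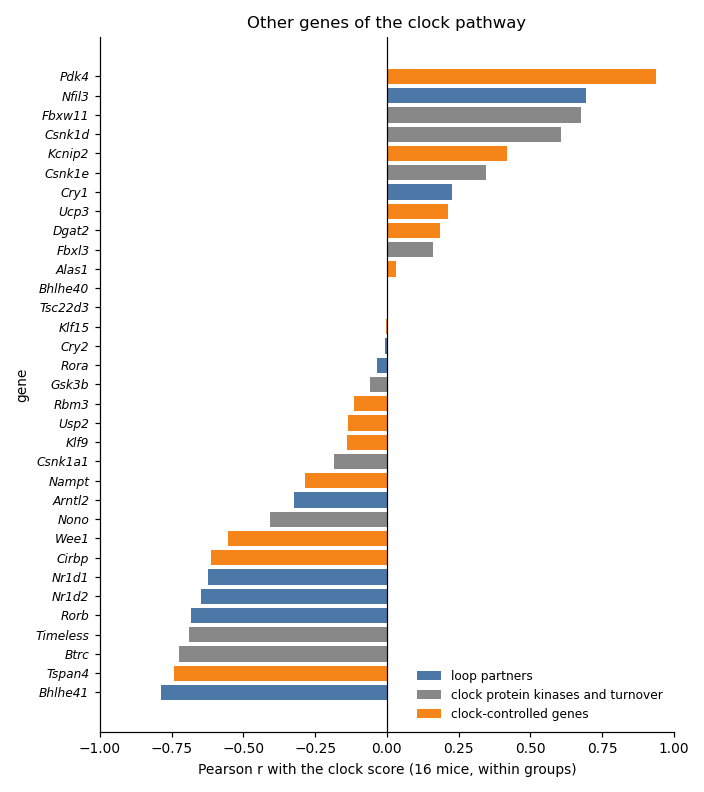
Pearson correlation of 33 other clock pathway genes with the clock score over 16 mice, after centring on group means, coloured by the list the gene belongs to. Pdk4 is at 0.94 and Bhlhe41 at -0.79, and Bhlhe40, Tsc22d3, Klf15 and Cry2 lie close to 0.

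Among 11978 other protein-coding genes that averaged at least 1 CPM, those whose level went most closely with the clock score within groups were Atg13 (Pearson r 0.94), Perm1 (0.93), Ppp2ca (0.92), Cxcl14 (0.92) and Adprhl1 (0.91) in the same direction, and Timm29 (-0.94), Fan1 (-0.94), Sec22a (-0.94), Rad51d (-0.93) and Angptl2 (-0.93) in the opposite direction. Atg13, a subunit of the kinase complex that starts autophagy, was 44.4 CPM in AAV9-GFP TAC mouse 1 and 55.9, 57.5 and 60.2 CPM in mice 3, 4 and 7, and 46.1 CPM in AAV9-Cardinal TAC mouse 1 and 53.9, 65.3 and 69.4 CPM in mice 4, 5 and 6. In sham hearts it was 41.0, 42.8, 46.8 and 44.7 CPM with AAV9-GFP and 39.6, 37.5, 45.2 and 44.5 CPM with AAV9-Cardinal in mice 1 to 4, so that mouse 1 was the lowest in 3 of the 4 groups. Timm29, a part of the inner membrane import machinery of mitochondria, ran the other way, with mouse 1 the highest in 3 of the 4 groups and level with mouse 2 in AAV9-Cardinal sham. Correlations of this size over 16 mice describe these libraries, and genes were picked for them out of a large number.

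Some other measures also moved with the score within groups. The correlation with the log2 of the measure was 0.74 for the summed red blood cell markers (from 348 to 1040 CPM over all mice), 0.58 for the endothelial markers (from 406 to 571 CPM), -0.49 for the fibroblast markers (from 387 to 805 CPM) and -0.78 for Gm12295. It was 0.14 for the cardiomyocyte markers, -0.09 for the macrophage markers, -0.23 for the smooth muscle and pericyte markers, 0.20 for the share of counts from mitochondrially encoded genes (between 30.3% and 34.0%) and -0.33 for the total count. The value for Gm12295 leans on AAV9-Cardinal TAC mouse 1, with 93.8 CPM and a score of -4.27. The other mice of that group had between 18.3 and 20.6 CPM and higher scores. The correlation without that mouse was not computed. All 5 red blood cell, 5 endothelial and 6 fibroblast markers reached 1 CPM in at least 1 mouse. The red blood cell markers were between 423 and 852 CPM in AAV9-GFP sham, 437 and 1040 in AAV9-GFP TAC, 414 and 543 in AAV9-Cardinal sham, and 348 and 802 CPM in AAV9-Cardinal TAC hearts. The part of these measures in the levels of the clock genes was not tested, and neither was the time of day.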

How the data were processed

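The values are raw counts of reads on Ensembl genes, as the authors deposited them without normalization, from single-end 50-base poly(A) RNA-Seq of heart apex, with 1 column for each of 16 samples, taken here as 16 mice. Nothing in the labels says that samples of a group came from separate cages or days, so p-values measure the spread between these samples. The submitters' processing notes name FastQC, HISAT2 2.1.0, edgeR 3.26.1 and GRCm38. The counting program, its annotation, its use of strand and its treatment of reads with several matches are not given in the sources used here. Of 55573 genes, 55480 were matched by Ensembl ID to GENCODE M21, whose exons gave the lengths for RPKM.

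Counts were analysed with edgeR 4.0.16 in R 4.3.3 (TMM, expression filter by group, 16857 genes, quasi-likelihood fit of all 16 mice, Benjamini-Hochberg threshold 0.05). CPM are TMM-scaled, and log2 CPM used a prior count of 2. Members were also tested one at a time with an exact permutation test on log2 CPM (two-sided, all 70 ways to split 8 mice into groups of 4). The fit was tested on simulated data. Alternatives were DESeq2 1.42.0, other size factors and filters, a robust spread, mitochondrially encoded genes left out, the number as block or covariate, fewer mice, and each mouse left out. Correlations and plots were made in Python 3.11.15 with scipy 1.17.1 and matplotlib 3.10.9.

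The members, the lists and the tests were chosen with earlier results of these data known. Named genes were all members, Nr1d1, Nr1d2, Cry1, Cry2, Bhlhe41 and Nfil3, any other gene of the wider list called in a comparison, and the 5 genes at either end of the correlation with the clock score. A gene of the wider list is not reported here by name, although the fits and list counts include it. By the rule that every pair should exceed 0.1, same-numbered mice were not treated as pairs: over all tested genes, their deviations from the group means correlated between -0.04 and 0.21, above 0.1 in 4 of 16 pairs, all 4 of them between mice numbered 1, whose 6 pairs were between 0.07 and 0.21.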

Additional observations from a re-analysis of the deposited data

Results flagged for a closer look

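One mouse lay far from the rest of its group. Dbp was 100.9 CPM in AAV9-Cardinal TAC mouse 1 and between 28.7 and 37.7 CPM in the other 3 mice of that group, so that the gap to the nearest mouse was 0.876 of the group's range, beyond Dixon's 95% critical value for 4 samples. Of 40 groups of 4 values examined (10 genes in 4 groups), 1 was beyond it, where chance alone flags about 1 in 20. Because the members were chosen for following the mouse number within groups, this flag draws on that choice. It is a description, not a test. The same mouse also had the highest Gm12295 level of all mice, at 93.8 CPM, and the part of that in its Dbp level was not tested.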

How the results depend on the processing

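The count of clock genes past the threshold after TAC in AAV9-GFP hearts, 2, was 1 (Per2) with every gene of at least 1 count kept and 1 (Per2) without the 3 mice numbered above 4, and between 1 and 3 with each mouse left out. Over all genes, the fit with every gene kept called 2348 and that without the mice numbered above 4 called 2089, compared with 2934 as reported. With each mouse left out, between 1962 and 3072 genes were called. After TAC in AAV9-Cardinal hearts, 0 became 1 (Dbp) with mouse number as a linear covariate and 4 without the 4 mice numbered 1, and was between 0 and 5 with each mouse left out, the 5 without AAV9-Cardinal TAC mouse 1. Over all tested genes these fits called 782, 1216 and 1436 genes, in that order, compared with 1092 as reported. Across the fits with each mouse left out, the total was between 384 and 1436. The call of Dbp with the number as a covariate is a description, since the number chose the members. For the viruses in TAC hearts, 0 became 1 (Per2) with DESeq2 and was between 0 and 1 with each mouse left out, and for the difference in the TAC response 0 became 1 (Per2) with DESeq2. With mouse number as a replicate block, these counts were 2 and 0 after TAC and 0 between viruses, while in AAV9-GFP hearts the calls of Wee1, Usp2 and Dgat2 after TAC were lost. The block fit called 2091 genes in all after TAC in AAV9-GFP hearts and 31 in AAV9-Cardinal hearts. Other loop and output genes past the threshold after TAC in AAV9-Cardinal hearts, 4, were 7 with DESeq2, 0 with the replicate block, 9 without the mice numbered 1, 0 without those numbered above 4, and between 1 and 7 with each mouse left out. Over all genes, these first 4 fits called 1407, 31, 1216 and 66, in that order. In TAC hearts between viruses, 0 of these loop and output genes became 2 with DESeq2, 1 without the mice numbered 1, and between 0 and 2 with each mouse left out. For this comparison, totals over all tested genes were given above for edgeR with all mice and for DESeq2, and not for the other fits. The correlation of the clock score with the number, 0.89, was 0.81 in sham mice and 0.72 without the mice numbered 1, and that of the arms, -0.89, was -0.81 in sham mice. With each mouse left out these were between 0.87 and 0.91, and between -0.91 and -0.83. The cause of these changes was not tested. The alternatives without the mice numbered 1, those of the call counts without the mice numbered above 4, and those of the wider list were chosen after seeing the data. Leaving out the mice numbered above 4 leaves 2 mice in AAV9-Cardinal TAC. No direction of a called gene was reversed by any of these. Depth limits Arntl most, with 12 counts in its lowest mouse.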
